A study of Bos taurus with 20 samples.

Results

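The genes IRF7, PLAC8 and IFITM3 were followed across 20 libraries of bovine embryos at day 14, beside IFNT, the row for interferon tau. The 3 genes were selected by symbol as 3 of the 15542 rows of the deposited expression table. RNA had been sequenced from 2 vitrified whole embryos, 7 samples of trophectoderm (TE) from vitrified embryos, 6 fresh whole embryos and 5 samples of TE from fresh embryos, and all were flushed from the uterus. Vitrification stores embryos at low temperature in a glass-like state without ice crystals, and the fresh embryos had not undergone it. The labels name neither breed nor recipient animal, tie no sample to a particular embryo and do not state whether any sample was a pool. P-values therefore measure only the spread between these samples, which may be technical.

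The TE is the outer epithelium of the embryo from which the placenta arises, and in ruminants it is the source of interferon tau, by which the embryo signals its presence to the mother. Type I interferons bind the receptor chains IFNAR1 and IFNAR2, which act through JAK kinases on a complex that holds STAT2 and IRF9, and this complex switches on the interferon-stimulated genes. In the ruminant endometrium interferon tau is known to induce such genes. IRF7 is a transcription factor that amplifies the production of type I interferons and is itself interferon-stimulated. IFITM3 is a membrane protein that restricts the entry of enveloped viruses and is a classical interferon-stimulated gene. PLAC8 is a small cysteine-rich protein whose transcript has been followed in cattle embryos and endometrium in work on pregnancy.

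On the UMD3.1 assembly, IRF7 lies on chromosome 29 from 50903719 to 50906820 on the plus strand, and IFITM3 on the same chromosome and strand from 51367009 to 51368065. PLAC8 lies on chromosome 6 from 99721321 to 99754969 on the minus strand. The IFNT row spans 22607643 to 22634001 on chromosome 8, minus strand. Interferon tau is a family of near-identical gene copies, so reads could be split between rows and IFNT stands here for the row of that name. Levels are in RPKM, the reads of a gene for each kilobase and each M reads sequenced, M being 1000000. Gene length here is the genomic span with introns, 3.102 kb for IRF7, 33.649 kb for PLAC8, 1.057 kb for IFITM3 and 26.359 kb for IFNT. Levels are therefore compared within a gene and do not rank genes against each other. Cuts in RPKM and sums over markers below depend on gene spans too.

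Libraries held 6.01 to 14.53 M reads. The fresh TE libraries stood apart, with 33.8 to 40.3% of their reads in the genes of the table, against 57.5 to 63.9% in the other 15 libraries. RPKM divides by all reads, those outside the listed genes included. Fresh TE samples 1 and 2 were close to sampling noise in their difference, at 1.88 by chi-square over its degrees of freedom, and samples 3 and 4 had 1.48, while other pairs of fresh TE libraries reached 11.86 to 22.57. For the 3 genes, both comparisons with fresh TE are also given with these pairs averaged, which leaves 3 samples. The other p-values printed on fresh TE treat its 5 samples as separate. The labels name no batch.

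The labels were set beside markers of cell types. All 12 trophectoderm markers other than IFNT were measured with reads in each group. Their summed level was 2299 to 2755 RPKM in vitrified whole embryos, 1983 to 2994 RPKM in vitrified TE, 1422 to 2125 RPKM in fresh whole embryos and 2271 to 2891 RPKM in fresh TE. For 8 of 10 hypoblast markers found, the sums were 253 to 751 RPKM in vitrified whole embryos, 669 to 1375 RPKM in vitrified TE, 572 to 1038 RPKM in fresh whole embryos and 151 to 327 RPKM in fresh TE. The 7 epiblast markers summed to 1.81 to 29.8 RPKM in vitrified whole embryos, 2.45 to 4.14 RPKM in vitrified TE, 2.10 to 10.2 RPKM in fresh whole embryos and 0.406 to 0.769 RPKM in fresh TE. Libraries labelled vitrified TE thus held hypoblast transcripts, led by the apolipoprotein APOA1 at a mean of 892 RPKM, against 243 RPKM in fresh TE. The epiblast factor POU5F1 averaged 0.827 RPKM in vitrified TE and 0.0617 RPKM in fresh TE.

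IRF7 had similar levels in 3 of the groups and was lowest in fresh TE. It read 7.72 and 7.63 RPKM in the vitrified whole embryos. In vitrified TE it ran from 6.82 RPKM through a median of 8.35 RPKM to 16.1 RPKM in sample 5. In fresh whole embryos the lowest value was 4.65 RPKM, the median 7.04 RPKM and the highest 10.8 RPKM. The 5 fresh TE samples had 2.66, 1.45, 2.18, 3.41 and 1.73 RPKM, which rested on 27 to 77 reads each. All 5 lay below every library of the other groups, which overlapped one another. Group means were 7.68 ± 0.0669 RPKM in vitrified whole embryos, 9.24 ± 3.17 RPKM in vitrified TE, 7.41 ± 2.10 RPKM in fresh whole embryos and 2.29 ± 0.778 RPKM in fresh TE (SD, n = 2, 7, 6 and 5).

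PLAC8 separated the groups further. It had 46.0 and 41.6 RPKM in the vitrified whole embryos. In vitrified TE the lowest value was 28.9 RPKM, the median 36.7 RPKM and the highest 50.2 RPKM. In fresh whole embryos PLAC8 ran from 58.0 RPKM through a median of 64.2 RPKM to 94.2 RPKM. Each fresh whole embryo exceeded every vitrified sample, while both vitrified whole embryos lay within the range of vitrified TE. The fresh TE samples had 14.4, 14.8, 13.4, 13.7 and 18.8 RPKM, the lowest values of PLAC8 in the study. Means were 43.8 ± 3.05 RPKM in vitrified whole embryos, 38.5 ± 8.26 RPKM in vitrified TE, 70.6 ± 14.9 RPKM in fresh whole embryos and 15.0 ± 2.19 RPKM in fresh TE (SD, n = 2, 7, 6 and 5), from at least 2996 reads in any library.

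IFITM3 showed the widest span of the 3 genes between groups. It had 126 and 177 RPKM in the vitrified whole embryos. In vitrified TE it ran from 93.9 RPKM through a median of 157 RPKM to 176 RPKM, and in fresh whole embryos from 86.2 RPKM through 219 RPKM to 307 RPKM. The fresh TE samples had 3.37, 4.73, 15.0, 11.4 and 10.1 RPKM on 22 to 125 reads each. The highest fresh TE value was thus below the lowest value of any other group. Within fresh TE the near-identical pair 1 and 2 held the lowest values and the pair 3 and 4 the highest. Means were 152 ± 36.2 RPKM in vitrified whole embryos, 140 ± 30.4 RPKM in vitrified TE, 217 ± 77.8 RPKM in fresh whole embryos and 8.93 ± 4.83 RPKM in fresh TE (SD, n = 2, 7, 6 and 5).

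Interferon tau was highest in fresh TE, where the 3 genes were lowest. IFNT had 2.82 and 3.68 RPKM in the vitrified whole embryos, 2.99 to 5.74 RPKM in vitrified TE, 6.35 to 21.3 RPKM in fresh whole embryos, and 128, 118, 99.9, 102 and 148 RPKM in fresh TE. The 5 libraries with the most interferon tau were the 5 with the least IRF7, PLAC8 and IFITM3. Most genes were low in fresh TE. Of all tested genes, 69.0% were called higher in vitrified TE than in fresh TE, and 60.0% in fresh whole embryos. The share of all genes with their lowest values in these 5 libraries was not counted. The vitrified samples had the least interferon tau, and their IRF7 and IFITM3 overlapped those of fresh whole embryos. Their PLAC8, like their interferon tau, lay below that of every fresh whole embryo.

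**Figure D1:**
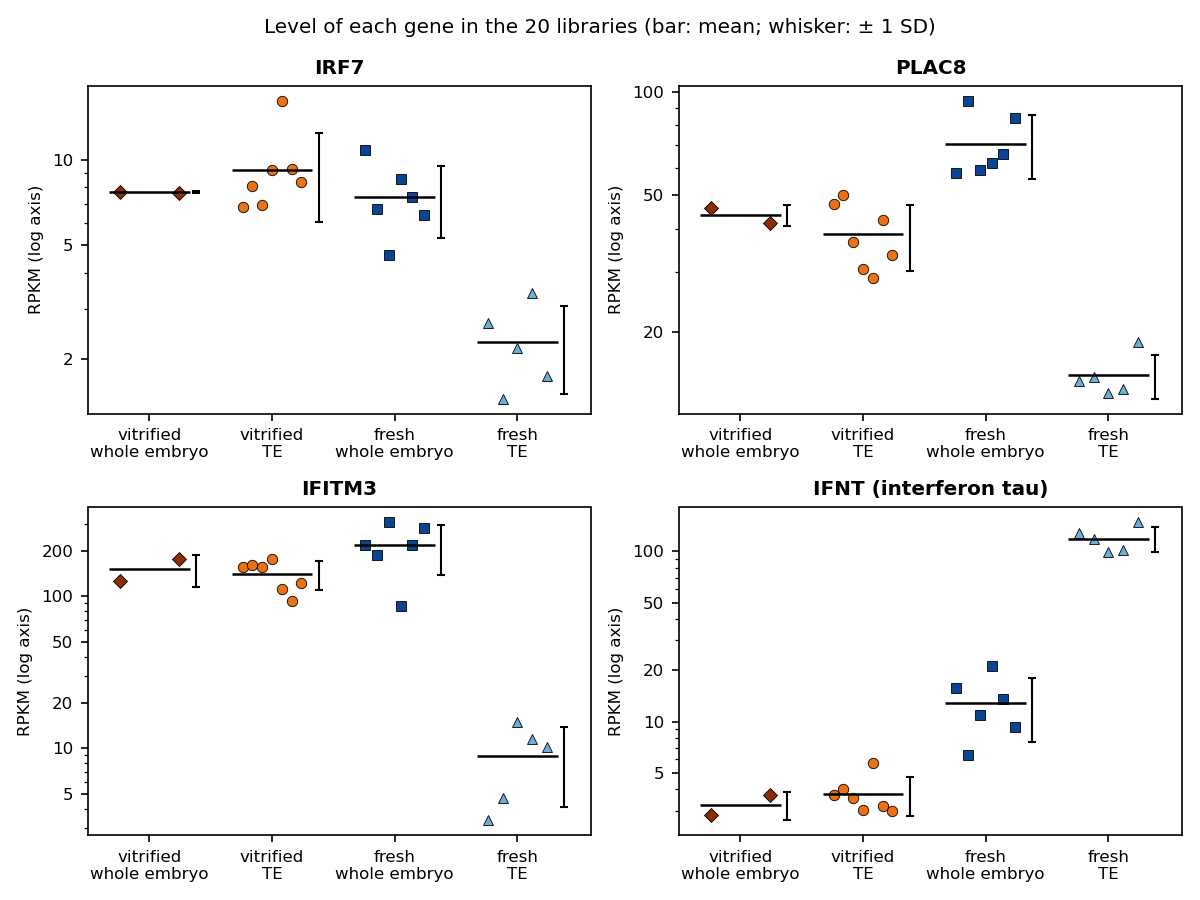
Level of IRF7, PLAC8, IFITM3 and interferon tau (IFNT) in RPKM on log axes, with a point per library, a bar at the group mean and a whisker of 1 SD either way, for 2 vitrified whole embryos, 7 vitrified TE, 6 fresh whole embryo and 5 fresh TE samples. Fresh TE held the lowest values of the first 3 genes, down to 3.37 RPKM for IFITM3, and the highest of IFNT, up to 148 RPKM.

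TE after vitrification was compared with TE of fresh embryos, by label the comparison of the outer epithelium alone. Both groups held hypoblast transcripts, at higher summed levels in vitrified TE, so the labels do not fix the cell composition. All 3 genes were higher in vitrified TE, and interferon tau was lower. IFITM3 was 15.6-fold higher by the ratio of means, IRF7 4.04-fold and PLAC8 2.56-fold. On the scale of log2(RPKM + 1), the differences were 3.95 ± 0.319 for IFITM3, 1.62 ± 0.197 for IRF7 and 1.28 ± 0.154 for PLAC8 (± SE, n = 7 against 5). The limma test, with Benjamini-Hochberg adjustment over the 10599 tested genes, gave adjusted p = 2.5e-09 for IFITM3, 5.5e-07 for IRF7 and 4.8e-07 for PLAC8. None of the 3 genes overlapped between the groups, but the share of all tested genes without overlap was not counted. IFNT was 31.8-fold lower, with a log2 difference of -4.67 (adjusted p = 2.2e-12).

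These calls have to be read against the whole table, since 75.6% of all tested genes were called, 69.0% higher in vitrified TE and 6.66% lower. The median gene had a ratio of means of 2.45. IFITM3 exceeded 93.7% of genes by this ratio and stood 6.40-fold above the median gene. IRF7 exceeded 69.3% of genes and stood 1.65-fold above the median. PLAC8 stood at 1.05 times the median ratio and exceeded 51.8% of genes. Scaled per M reads of the listed genes, the ratios were 10.3 for IFITM3, 2.63 for IRF7 and 1.65 for PLAC8, beside 1.58 for the median gene.

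Scaling of the libraries moved the median log2 difference of all genes by more than 0.1, to 0.01 under median-ratio scaling from reads, against 0.18 on the deposited scale. IFITM3 kept a difference of 2.92 there (limma, adjusted p = 1.6e-07) and IRF7 one of 0.75 (adjusted p = 0.0036). PLAC8 had 0.22 (adjusted p = 0.24) under median-ratio scaling and 0.33 (adjusted p = 0.081) under quantile normalization, so its call was lost under both. With the near-identical fresh TE libraries averaged, the differences on the deposited scale were 3.89 for IFITM3, 1.65 for IRF7 and 1.23 for PLAC8, with the largest adjusted p at 2.7e-05 by limma.

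The summed hypoblast markers were also higher in vitrified TE, with a median of 1003 RPKM against 279 RPKM in fresh TE, and their part in these differences was not tested. In RNA from many cells, fewer cells of a type and less RNA per cell cannot be told apart. Endometrium markers, of which 11 of 15 were found, summed to 3.38 to 7.13 RPKM in vitrified TE and 1.99 to 3.28 RPKM in fresh TE. Of the 7 tested, 3 were higher in vitrified TE (CST6, MSX1 and OVGP1, by 1.0, 0.79 and 0.19 on the log2 scale) and 0 were lower. Of all tested genes, 69.0% were called higher and 6.66% lower in this comparison. Of the uterine markers, HOXA11 was at 0 in every vitrified library and averaged 0.0127 RPKM in fresh TE. Blood and immune markers, of which 14 of 22 were found, summed to 4.95 to 7.94 RPKM in vitrified TE and 11.6 to 17.3 RPKM in fresh TE, where AIF1 alone averaged 11.4 RPKM. Of the 8 tested, 4 were higher in vitrified TE, among them CD68 by 1.56 and HBA by 1.11, and 2 were lower, AIF1 among them. These counts stand beside the same 69.0% and 6.66% of all tested genes. The part of maternal cells in the differences was not tested.

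In whole embryos, vitrified against fresh, the calls were fewer and the 3 genes did not move together. PLAC8 was lower in vitrified whole embryos, at 0.620 of the fresh mean, with a log2 difference of -0.65 ± 0.215 (SE, n = 2 against 6, limma adjusted p = 0.027). No value of PLAC8 overlapped between the groups, but the share of all tested genes without overlap was not counted. IRF7 had a difference of 0.08, with a 95% confidence interval of -0.49 to 0.66 (adjusted p = 0.85). IFITM3 had -0.43, with an interval of -1.36 to 0.50 (adjusted p = 0.49), and both genes overlapped between the groups. The intervals leave room for changes of either sign in these 2 genes. IFNT was 3.96-fold lower in vitrified whole embryos, a log2 difference of -1.62 (adjusted p = 0.00055). It did not overlap either, with the same share of all tested genes not counted.

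Thus 1 of the 3 genes was called lower, where 30.9% of all genes were called, 3.94% lower and 26.9% higher. The median gene had a ratio of means of 1.30, and PLAC8 stood at 0.476 of it, above 7.14% of genes. With 2 vitrified whole embryos the PLAC8 call depended on each of them. Without vitrified whole embryo 1 the difference was -0.72 (adjusted p = 0.072), and without vitrified whole embryo 2 it was -0.58 (adjusted p = 0.21), where the lone sample is taken to vary like the other groups. In a fit of these 2 groups alone, limma gave adjusted p = 0.068 for the same difference. The vitrified whole embryos also differed from each other in hypoblast markers, with summed levels of 253 and 751 RPKM, against 572 to 1038 RPKM in fresh whole embryos, and the part of these markers was not tested.

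Fresh whole embryos were compared with fresh TE, by label the contrast of the entire embryo with its outer layer. All 3 genes were higher in fresh whole embryos, where 66.0% of all tested genes were called, 60.0% higher and 5.97% lower. None of the 3 overlapped, but the share of all tested genes without overlap was not counted. IFITM3 was 24.3-fold higher by the ratio of means, with a log2 difference of 4.51 ± 0.329 (SE, n = 6 against 5, limma adjusted p = 2.1e-09). PLAC8 was 4.70-fold higher, with 2.15 ± 0.160 (adjusted p = 2.6e-09). IRF7 was 3.24-fold higher, with 1.35 ± 0.204 (adjusted p = 1.2e-05). IFNT was 9.26-fold lower, with -3.19 (adjusted p = 1.0e-09).

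In this contrast the median gene had a ratio of means of 2.18. IFITM3 stood 11.1-fold above the median gene, PLAC8 2.16-fold and IRF7 1.49-fold, which placed them above 97.7%, 80.1% and 68.3% of genes. All 3 kept their call under the other scalings, where limma gave at most adjusted p = 0.043, for IRF7 under quantile normalization with a difference of 0.53. With the near-identical libraries averaged, the differences were 4.45 for IFITM3, 2.09 for PLAC8 and 1.37 for IRF7. This comparison and that of vitrified with fresh TE share the same 5 fresh TE samples, so the resemblance of their values is no independent evidence. Summed hypoblast markers had a median of 786 RPKM in fresh whole embryos and 279 RPKM in fresh TE. Of the tested endometrium markers 7 of 7 were higher in fresh whole embryos, with sums of 4.96 to 11.3 RPKM in fresh whole embryos and 1.99 to 3.28 RPKM in fresh TE. Of 8 tested blood and immune markers, 5 were higher and 2 lower. Both marker counts stand beside 60.0% of all tested genes called higher and 5.97% called lower. The part of these markers was not tested.

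Among vitrified samples, whole embryos and TE did not separate for any of the 3 genes. Their log2 differences were -0.19 for IRF7 (95% confidence interval -0.76 to 0.37), 0.21 for PLAC8 (-0.24 to 0.65) and 0.13 for IFITM3 (-0.79 to 1.04). The limma test called 0 of 3, also at an unadjusted p under 0.05, with adjusted p of 0.65, 0.52 and 0.87, where 18.9% of all genes were called, 15.3% higher and 3.59% lower. IFNT had a difference of -0.15 (adjusted p = 0.76). Each gene overlapped between the groups. With 2 whole embryos the intervals are wide.

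The effect of vitrification, here the difference of vitrified from fresh samples, was compared between whole embryo and TE by an interaction term. The effect in whole embryos minus that in TE was -4.39 ± 0.547 for IFITM3, -1.94 ± 0.265 for PLAC8 and -1.54 ± 0.338 for IRF7 on the log2 scale (SE). The limma adjusted p-values were 1.5e-05, 3.5e-05 and 0.0020, and 3 of 3 genes were called lower, where 32.3% of all genes were called, 28.4% lower and 3.98% higher. For IFNT the term was 3.04 (adjusted p = 8.7e-06). The term for IRF7 had adjusted p = 0.052 under quantile normalization, with a value of -0.95, while PLAC8 and IFITM3 kept their call under each scaling tried. Since fresh TE was the lowest group for each gene, the same 5 libraries enter this term. Vitrification and other traits of these libraries were not tested apart.

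**Figure D2:**
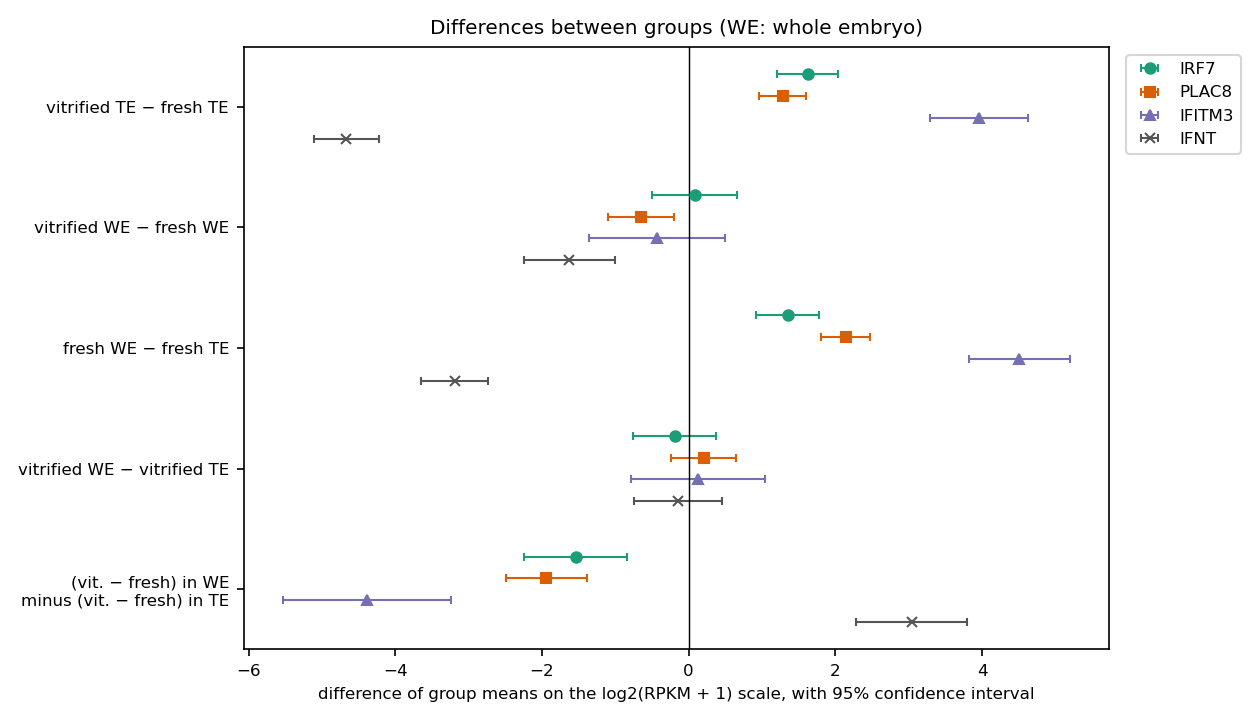
Difference of group means on the log2(RPKM + 1) scale for IRF7, PLAC8, IFITM3 and IFNT in the 4 comparisons and for the difference of the vitrification effects, with 95% confidence intervals from limma, with whole embryo shortened on the axis. The 3 genes lie right of 0 and IFNT left of it in both comparisons against fresh TE, while the intervals of all 4 genes cross 0 between vitrified whole embryos and vitrified TE.

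**Figure D3:**
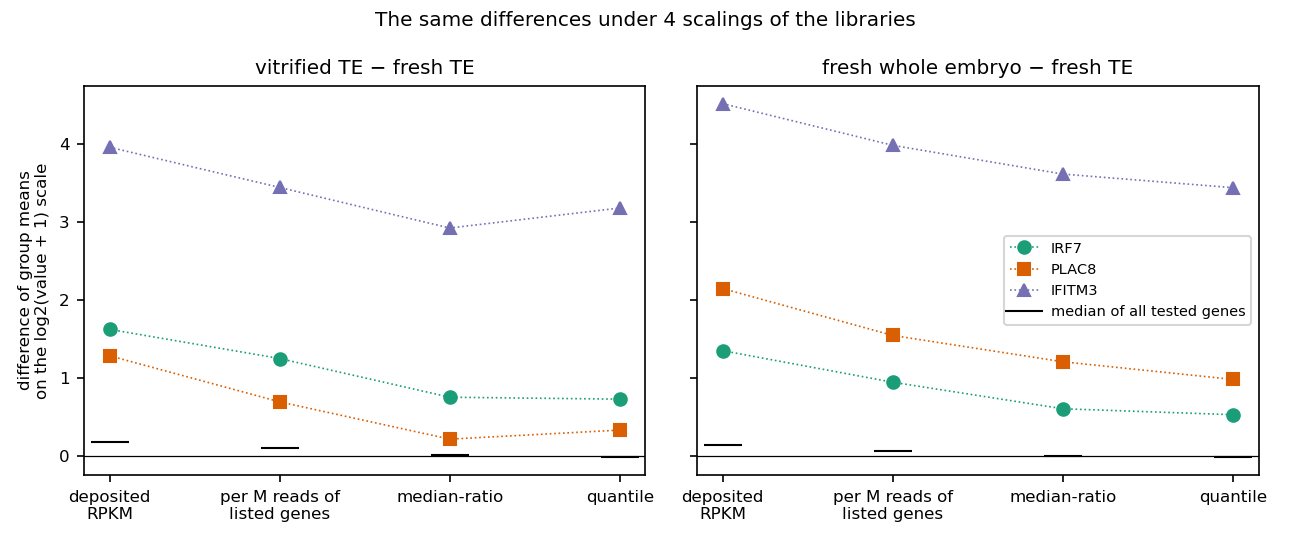
Log2 difference of IRF7, PLAC8 and IFITM3 in vitrified TE minus fresh TE (left) and fresh whole embryo minus fresh TE (right) under 4 scalings of the libraries, with a bar at the median of all tested genes. IFITM3 stays between 2.92 and 3.95 on the left, while PLAC8 comes down to 0.22 under median-ratio scaling.

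Within a group, interferon tau could be set beside each gene where at least 6 samples existed. Over the 6 relations tested, none passed adjustment. In the 7 vitrified TE samples, Pearson's r with IFNT was 0.68 for IRF7 (exact permutation p = 0.25, adjusted p = 0.38), while Spearman's rho was 0 (exact p = 1). Sample 5 held both the highest IRF7, 16.1 RPKM, and the highest IFNT, 5.74 RPKM, and without samples 5 and 7, the farthest from the median of IFNT, r was -0.64. The relation therefore rests on those samples. For PLAC8 r was -0.16 (exact permutation p = 0.80, adjusted p = 0.80) and rho 0.18 (p = 0.71, adjusted p = 1), and without samples 5 and 7 r was 0.80. For IFITM3 r was -0.17 (exact permutation p = 0.67, adjusted p = 0.80) and rho -0.07 (p = 0.91, adjusted p = 1), with 0.26 without them.

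In the 6 fresh whole embryos, r with IFNT was -0.81 for PLAC8 (exact permutation p = 0.056, adjusted p = 0.33) and rho was -0.71 (p = 0.14, adjusted p = 0.41). Without samples 2 and 4, the farthest from the median, r was -0.73. For IRF7 r was 0.55 (exact permutation p = 0.23, adjusted p = 0.38) and rho 0.71 (p = 0.14, adjusted p = 0.41), with 0.78 without those samples. For IFITM3 r was -0.57 (exact permutation p = 0.23, adjusted p = 0.38) and rho -0.31 (p = 0.56, adjusted p = 1), with -0.85 without them. Fresh whole embryo 4 had the highest IFNT of its group, 21.3 RPKM, and the lowest IFITM3, 86.2 RPKM, while fresh whole embryo 2 had the lowest IFNT, 6.35 RPKM, and the highest PLAC8, 94.2 RPKM. No pooled correlation is tested, because the groups form separate clusters.

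**Figure D4:**
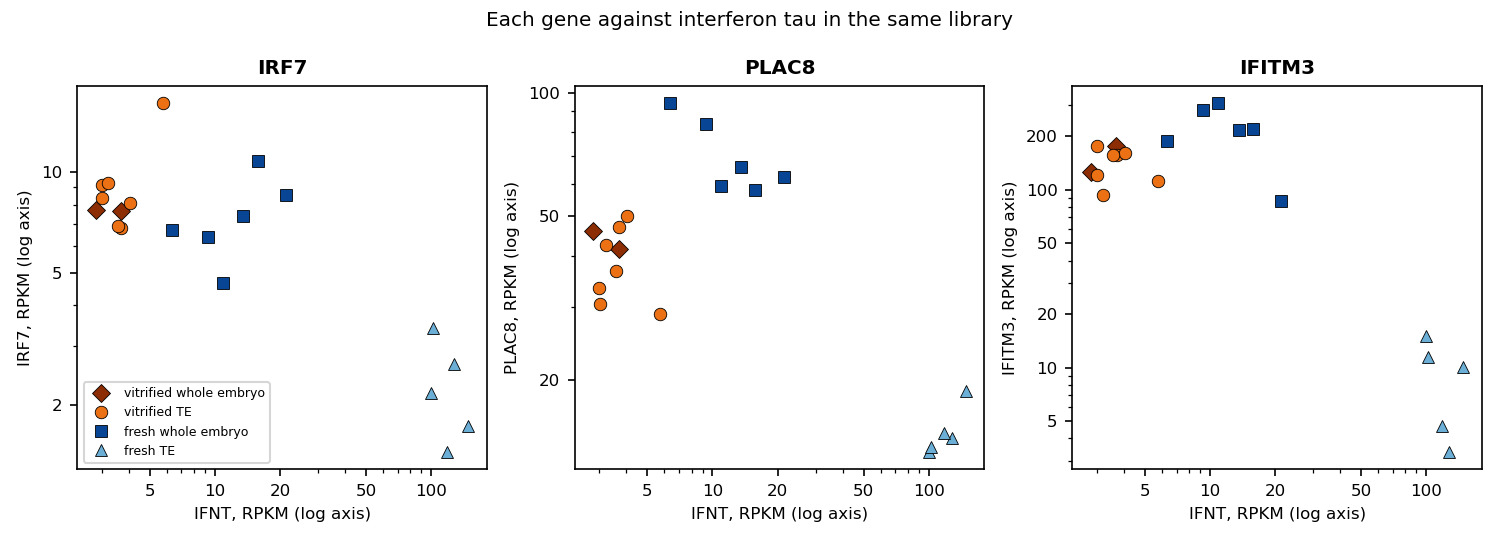
IRF7, PLAC8 and IFITM3 against interferon tau (IFNT) in the same library, in RPKM on log axes, with a point per library and the 4 groups marked by shape and colour. Fresh TE forms a cluster of its own at 99.9 to 148 RPKM of IFNT and low levels of each gene.

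The pathway on both sides of the 3 genes was described through lists of receptors, regulators and targets. Of 133 symbols related to interferon, the 3 genes left aside, 105 were found and 71 tested. Vitrified against fresh TE, 39 of them (54.9%) were higher, 2 lower and 30 did not pass, with a median log2 difference of 0.07, where 69.0% of all tested genes were higher and their median was 0.18. Between vitrified and fresh whole embryos 16 (22.5%) were higher and 2 lower, against 26.9% of all genes higher. In fresh whole embryos against fresh TE 35 (49.3%) were higher and 3 lower, against 60.0% of all genes higher. In vitrified whole embryos against vitrified TE 13 (18.3%) were higher and 0 lower, against 15.3% of all genes higher. Under quantile normalization, vitrified against fresh TE gave 12 higher (16.9%) and 29 lower, where all tested genes gave 2776 higher (26.2%) and 4100 lower. Fresh whole embryos against fresh TE gave 11 higher (15.5%) and 23 lower there, where all tested genes gave 2504 higher (23.6%) and 3675 lower.

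Values of single genes of these lists are on the deposited scale. The receptor chains stood near the limit of detection. IFNAR1 had 2 to 31 reads per library and IFNAR2 had 0 to 3. Of the 10 tested receptors and signalling genes, 4 (40%, against 69.0% of all genes) were higher in vitrified than in fresh TE. None was lower on the deposited scale. Quantile normalization gave 1 higher (10%, against 26.2% of all genes) and 7 lower. STAT2, which binds IRF9 in the complex downstream of the receptor, averaged 0.214 RPKM in vitrified TE and 0.0436 RPKM in fresh TE (log2 difference 0.22, limma adjusted p = 1.2e-05). JAK1, the kinase bound to IFNAR2, had a difference of 0.19 (adjusted p = 0.00024). IRF9, the partner of STAT2 in the complex downstream, averaged 0.205 RPKM in vitrified TE and 0.182 RPKM in fresh TE. Its difference of 0.03 did not pass (limma adjusted p = 0.72).

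Among the other interferon regulatory factors, 6 were tested. In vitrified against fresh TE, 4 of them (66.7%, near the 69.0% of all genes) were higher and 0 lower. Quantile normalization gave 1 higher (16.7%, against 26.2% of all genes) and 2 lower. IRF3, which triggers interferon production after viral sensing, averaged 2.42 ± 0.488 RPKM in vitrified TE and 1.09 ± 0.151 RPKM in fresh TE (log2 difference 0.70, limma adjusted p = 3.4e-06). It was also higher in fresh whole embryos than in fresh TE, by 0.62 (adjusted p = 3.0e-05). IRF5 had 0.31 in vitrified against fresh TE (adjusted p = 0.015) and IRF8 had 0.10 (adjusted p = 0.0049). IRF1, itself interferon-induced, was higher in vitrified than in fresh whole embryos by 0.54 (adjusted p = 0.023), but its 2 vitrified values were 0.147 and 1.57 RPKM, and the lower one lay within the fresh range of 0.0444 to 0.368 RPKM. IRF2 had at most 6 reads and was not tested.

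Of 12 tested sensors of viral and bacterial products and their adaptors, 7 (58.3%, below the 69.0% of all genes) were higher in vitrified than in fresh TE. None was lower on the deposited scale, while quantile normalization gave 2 higher (16.7%, against 26.2% of all genes) and 5 lower. MYD88, the adaptor of Toll-like receptors, had a log2 difference of 0.84 (limma adjusted p = 1.0e-05), and the ubiquitin ligase TRAF6 one of 0.46 (adjusted p = 4.2e-09). RELA, a subunit of NF-kappaB, had 0.65 (adjusted p = 6.0e-06). TRAF6 was also higher in vitrified than in fresh whole embryos, by 0.42 (adjusted p = 4.3e-05). IRAK1, a kinase downstream of MYD88, was lower in fresh whole embryos than in fresh TE by a log2 difference of -0.90 (adjusted p = 0.00028), the only lower call of this list in that comparison.

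Of 12 tested negative regulators of the pathway, 10 (83.3%, against 69.0% of all genes) were higher and 0 lower in vitrified against fresh TE. That was on the deposited scale, and quantile normalization gave 4 higher (33.3%, against 26.2% of all genes) and 4 lower. TRIM28, a corepressor that dampens IRF7 activity, had a log2 difference of 2.08 (limma adjusted p = 6.8e-10). SHARPIN, part of a ubiquitin ligase complex, had 1.02 (adjusted p = 8.7e-08), and PIAS3, an inhibitor of STAT3, had 0.52 (adjusted p = 4.8e-07). Between vitrified and fresh whole embryos, SHARPIN had 0.95 (adjusted p = 0.00019) and TRIM28 had 0.85 (adjusted p = 0.0052).

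Targets of interferon, which are the company in which IFITM3 is usually found, mostly had means under 1 RPKM. That cut depends on the genomic span of a gene, introns included, so the shares do not rank levels between genes. Among tested genes, 18.9% of these targets reached a mean of 1 RPKM in vitrified whole embryos, 16.2% in vitrified TE, 21.6% in fresh whole embryos and 13.5% in fresh TE, against 40.9%, 39.1%, 36.6% and 26.5% of all tested genes in the same groups. Of 80 interferon-stimulated genes listed, 63 were found and 37 tested. A mean of at least 1 RPKM was reached by 7 of the 63 in vitrified whole embryos, 6 in vitrified TE, 8 in fresh whole embryos and 5 in fresh TE, and these were drawn from IFI30, B2M, PSME1, PSME2, CXCL5, PSMB10, IFITM2 and ISG15. The 26 that did not reach the filter summed to 29 to 77 reads per library in vitrified whole embryos, 14 to 34 in vitrified TE, 30 to 106 in fresh whole embryos and 13 to 29 in fresh TE.

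Vitrified against fresh TE, 14 of the 37 tested targets (37.8%) were higher and 2 lower, below the 69.0% of all genes called higher. Per M reads of listed genes 9 were higher and 6 lower (24.3% higher, against 49.4% of all genes). Median-ratio scaling gave 7 and 9 (18.9% higher, against 35.2%), and quantile normalization 4 and 16 (10.8% higher, against 26.2%). IFI30, a lysosomal thiol reductase induced by interferon gamma, averaged 36.0 ± 4.43 RPKM in vitrified TE and 15.2 ± 5.07 RPKM in fresh TE (log2 difference 1.23, limma adjusted p = 9.1e-07). LGALS9, a galectin, averaged 0.911 RPKM in vitrified TE and 0.0118 RPKM in fresh TE (0.91, adjusted p = 5.7e-10). CXCL5, a chemokine, had 1.51 (adjusted p = 4.6e-06). The 2 lower targets were TRIM25, the ubiquitin ligase that activates the RNA sensor RIG-I, with -0.40 (adjusted p = 5.5e-06), and NMI with -0.13 (adjusted p = 4.5e-06). TRIM25 was the highest in fresh TE, the group with the most interferon tau, where it averaged 0.572 RPKM, against 0.185 RPKM in vitrified TE and 0.0653 RPKM in fresh whole embryos.

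Fresh whole embryos against fresh TE gave 15 targets higher (40.5%, against 60.0% of all genes) and 2 lower of 37, and 7 higher (18.9%, against 23.6%) and 12 lower under quantile normalization. IFI30 averaged 45.9 ± 7.01 RPKM in fresh whole embryos and 15.2 ± 5.07 RPKM in fresh TE (log2 difference 1.57, limma adjusted p = 1.2e-07). In vitrified against fresh whole embryos 8 were higher (21.6%, against 26.9% of all genes) and 2 lower, among them IFIT5, an RNA-binding antiviral protein, with 0.36 (adjusted p = 0.0017), and CD274, the immune checkpoint ligand, with -0.11 (adjusted p = 0.0041). In vitrified whole embryos against vitrified TE 9 were higher (24.3%, against 15.3% of all genes) and 0 lower, led in size by PSME2, a proteasome activator subunit. It averaged 13.2 ± 0.231 RPKM in vitrified whole embryos and 6.50 ± 2.24 RPKM in vitrified TE (0.97, adjusted p = 0.010).

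Reads of the classical antiviral targets, which were picked out after their values were seen, came mostly from a few libraries. Whole-embryo libraries are called embryos here by their labels, which do not exclude pools. ISG15, a ubiquitin-like protein, had 35 reads in fresh whole embryo 4 (5.54 RPKM), 17 in embryo 6 (1.60 RPKM), 13 in embryo 2 (1.45 RPKM) and 1 in embryo 1, and none in embryos 3 and 5. It had 0 reads in all 7 vitrified TE samples, which allows levels of up to 0.302 to 0.374 RPKM by the limit of 3 reads. It had 2 reads in fresh TE 3 and 0 in the other fresh TE samples. RSAD2, the antiviral enzyme viperin, had 35 reads in fresh whole embryo 4 and 9 in embryo 2. IFI6 had 23 reads in embryo 4, 21 in embryo 2 and 12 in embryo 6. Some other targets peaked in other libraries. MX1, an antiviral GTPase, had its most reads in vitrified whole embryo 2, with 15, against at most 8 in a fresh whole embryo. By level, MX1 was at 0.0582 RPKM there and at 0.0400 RPKM in fresh whole embryo 4, the highest of the fresh whole embryos. IFIT3 had 8 reads at most in vitrified whole embryos and 9 in fresh embryo 6, where CXCL10 with 6 also peaked. OAS1Y had 11 reads in embryo 6 (0.136 RPKM) and 9 in embryo 4 (0.186 RPKM), a library of 6.09 M reads against 10.2 M. Fresh whole embryo 4 had the highest levels of ISG15, RSAD2, IFI6 and OAS1Y, but not of MX1, IFIT3 or CXCL10. It had the highest IFNT and the lowest IFITM3 of the fresh whole embryos.

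Relatives of the 3 genes had few reads. IFITM2, a paralog of IFITM3, averaged 1.37 RPKM in vitrified whole embryos, 0.414 RPKM in vitrified TE, 3.18 RPKM in fresh whole embryos and 0.655 RPKM in fresh TE, with at most 93 reads in a library. It was higher in fresh whole embryos than in fresh TE by 1.32 (limma adjusted p = 0.00014) and did not pass in vitrified against fresh TE (-0.16, adjusted p = 0.57). IFITM10 had 0 reads in every fresh TE sample and at most 12 elsewhere. PLAC8B averaged 0.0695 RPKM in vitrified whole embryos, 0.0422 RPKM in vitrified TE, 0.0713 RPKM in fresh whole embryos and 0.00848 RPKM in fresh TE, with at most 47 reads. Like PLAC8 it was higher in vitrified than in fresh TE (0.05, adjusted p = 0.0086) and in fresh whole embryos than in fresh TE (0.09, adjusted p = 8.0e-05). Reads of close relatives could be shared between such rows, and the counting rule is not given in the sources used here.

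Likeness of pattern was measured as Pearson's r over the 20 libraries against 1803 genes with at least 5 RPKM in their highest group. The libraries share the split between fresh TE and the rest, so high values are common, and no p is given. Nearest to IRF7 were the translation factor EIF4A1 (0.93), the helicase DDX21 (0.93) and the ubiquitin-conjugating enzyme UBE2J2 (0.92). Nearest to PLAC8 were NDUFB6, a subunit of respiratory complex I (0.97), the protease inhibitor CSTB (0.97) and LAMTOR5, of a lysosomal signalling complex (0.96). Nearest to IFITM3 were the glutathione transferase GSTP1, the dynein light chain DYNLRB1 and the prohibitin PHB, each at 0.98. IFNT ranked 1796 for IRF7, 1764 for PLAC8 and 1789 for IFITM3, near the bottom of 1803, and these ranks carry the same split.

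After group means were subtracted, so that only differences among samples of a group counted, other genes came first. They were the ribosomal proteins RPS10 (0.82), RPS16 (0.76) and RPS21 (0.72) for IRF7. For PLAC8 they were MRPL42 (0.79) and MRPL50 (0.77), proteins of the mitochondrial ribosome, and SAT1 (0.78), an enzyme of polyamine turnover. For IFITM3 they were C7H1orf35 (0.87), the endoplasmic reticulum protein CRELD2 (0.87) and the pyrophosphatase DCTPP1 (0.85). Between the genes themselves these correlations were -0.47 for IRF7 with PLAC8, -0.24 for IRF7 with IFITM3 and 0.05 for PLAC8 with IFITM3. IFNT had 0.39 with IRF7, -0.37 with PLAC8 and -0.39 with IFITM3.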

How the data were processed

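Total RNA of 20 samples was sequenced. FastQC, STAR 2.5.3a, Partek and the UMD3.1 assembly are named by the submitters' processing notes, without aligner options or a counting rule. The deposited values were taken as RPKM with an offset of 0.01, as inferred from the values: 94.4 to 95.8% of those under 1000 reads fell within 0.1 of whole reads. The plan's promoter search was not done, since no sequence table was used here.

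A gene was tested if 2 or more libraries held 10 or more of its recovered reads (10599 genes, leaving out 4943). The offset was subtracted and log2(value + 1) fitted with limma 3.58.1 (trend and robust fitting, statmod 1.5.0, R 4.3.3) with a mean per group over all 20 samples, Benjamini-Hochberg adjustment over genes and a threshold of 0.05. A log2 difference on this scale understates changes of low genes; folds are ratios of mean RPKM. Correlations used exact two-sided permutation tests (SciPy 1.17.1). The fit was tested on simulated data. As the values are not counts, no count test was run. Read-based limits reflect counting error alone.

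The 3 genes and all gene lists were chosen with earlier results of these data known. Of 200 listed symbols 158 were found. Genes named are the 3 genes, IFNT, relatives and regulatory factors, up to 4 listed genes per direction and comparison by smallest p, and the 3 most alike; some genes named by this rule are not reported here. Cell markers, receptors, antiviral targets by read number and rows near IRF7 were named outside this rule. The alternatives were other scalings, a pseudocount of 0.1, no filter, a fit of only the groups compared, averaged near-identical libraries, a replicate block and leaving out each library.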

Additional observations from a re-analysis of the deposited data

Results flagged for a closer look

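Within groups, 12 sets of values were examined for a sample far from the others, a rule that chance meets in about 1 of 20 sets. IRF7 in vitrified TE sample 5 was 16.1 RPKM, far above the other 6 samples. IFNT in the same library was 5.74 RPKM, also the highest of its group. PLAC8 in fresh TE sample 5 was 18.8 RPKM, above the other 4.

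The difference of vitrified from fresh samples in whole embryos was unlike that in TE by the interaction term of limma for each gene. Of all tested genes, 32.3% were called by this term. The log2 difference of effects was -1.54 for IRF7, -1.94 for PLAC8, -4.39 for IFITM3 and 3.04 for IFNT, all with the 5 fresh TE libraries as one of the 4 groups.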

How the results depend on the processing

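Calls of IFITM3 kept their direction and side of the threshold against fresh TE and in the interaction under all alternatives run, as did those of IRF7 except the interaction under quantile normalization (-0.95, adjusted p = 0.052). PLAC8 in vitrified against fresh TE lost its call under median-ratio scaling (0.22) and quantile normalization (0.33), and in vitrified against fresh whole embryos in the fit of only these groups (-0.65). There it ranged from -0.72 to -0.57 with single libraries left out. Uncalled differences changed sign: IRF7 between whole embryos under median-ratio scaling (-0.21), quantile normalization (-0.22) and without fresh whole embryo 3 (-0.026; range with single libraries left out -0.026 to 0.19). Between vitrified whole embryos and vitrified TE, PLAC8 had -0.087 under quantile normalization, and IFITM3 had -0.069 under median-ratio scaling, -0.052 under quantile normalization and -0.12 to 0.37 with single libraries left out, while IFNT had -0.29 to 0.0014. Without the 2 farthest samples, r with IFNT in vitrified TE was -0.64 for IRF7, 0.80 for PLAC8 and 0.26 for IFITM3. The cause of these changes was not tested.

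Counts of called genes moved with the scaling. In vitrified against fresh whole embryos 3270 genes (2852 higher, 418 lower) became 1866 (1124 and 742) under median-ratio scaling, 1571 (920 and 651) under quantile normalization, 2157 (1921 and 236) in the fit of only these groups, and 1137 to 3577 with single libraries left out, the lowest without vitrified whole embryo 2. In vitrified whole embryos against vitrified TE 1998 genes became 1251 per M listed reads, 601 (331 and 270) under median-ratio scaling, 494 (275 and 219) under quantile normalization, 786 in the fit of only these groups, and 139 to 2336 with single libraries left out, the lowest without vitrified whole embryo 2. Between vitrified and fresh TE the split of 7311 higher and 706 lower became 5232 and 1665 per M listed reads, 3732 and 2910 under median-ratio scaling and 2776 and 4100 under quantile normalization. In fresh whole embryos against fresh TE, 6364 and 633 became 4202 and 1695, 3179 and 2653, and 2504 and 3675 in that order, and for the interaction 422 and 3005 became 976 and 1749, 1482 and 1395, and 2064 and 1199.

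Replicate numbers were shared between groups without a stated pairing. Deviations of 22 same-numbered pairs correlated between -0.19 and 0.38, with 7 over 0.1. Most of those 7 were pairs of vitrified TE with fresh whole embryos, which had 0.15, -0.14, 0.38, 0.32, 0.11 and 0.15 for replicates 1 to 6. A source shared by same-numbered samples was not tested. A replicate block changed no call of the 3 genes, with 3.99 for IFITM3, 1.65 for IRF7 and 1.27 for PLAC8 in vitrified against fresh TE, and moved the count between vitrified whole embryos and vitrified TE to 790. IRF7 and IFITM3 in fresh TE rest on as few as 27 and 22 reads.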

Other observations

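IRF7 and IFITM3 lie 460.188 kb apart on chromosome 29, and 12 other rows of the table start and end between them, of which 10 were tested. Between vitrified and fresh TE 7 of these were higher and 0 lower, a share close to the 69.0% of all tested genes called higher, with log2 differences from -0.01 for LMNTD2 to 1.95 for the GTPase HRAS, beside 3.95 for IFITM3 and 1.62 for IRF7. In fresh whole embryos against fresh TE 3 were higher and 1 lower, below the 60.0% of all genes called higher, from -0.41 for SIGIRR, a receptor that restrains interleukin signalling, to 1.02 for HRAS. The row of DUSP8 spans the whole of IRF7 on the same strand and held 1 to 15 reads per library, against at least 27 for IRF7.

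A second row named for interferon tau, IFN-TAU, stood below the filter, with 0 to 1 reads per library in vitrified whole embryos, 0 to 2 in vitrified TE, 2 to 8 in fresh whole embryos and 0 to 3 in fresh TE. Its order of groups was thus unlike that of IFNT, whose highest group was fresh TE.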
